A study of Mus musculus with 25 samples.

Results

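The comparison described here set kidney podocytes of Actn4 knock-in (KI) mice at 5 weeks of age against those of KI mice at 2 weeks, on 4 arrays at each age. The 8 arrays were chosen by their labels from the 25 arrays of the series. Every animal, wild-type (WT) or KI, carried the Col1a1-eGFPL10a transgene, in which the collagen1α1 promoter drives green fluorescent protein fused to ribosomal protein L10a. KI mice also carried Actn4tm1.1Plk, a point-mutant allele of the alpha-actinin-4 gene that the design text writes as Actn4+/tm1.1Plk. The strain was C57/129sv, and the labels give the sex as unknown. WT mice of the same ages, with 4 arrays at 2 weeks and 5 at 5 weeks, and KI mice at 44 weeks, with 4 arrays, are given beside the comparison. Tagged ribosomes were pulled down (translating ribosome affinity purification, TRAP) and the bound RNA was hybridised to Affymetrix mouse arrays. The labels do not say whether each array is a separate animal, so p-values measure only the spread between these arrays. No probe set was named for Actn4, so the mutant gene was not analysed here.

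Podocytes are the epithelial cells that cover the outside of the glomerular capillaries. Their interlocking foot processes are bridged by the slit diaphragm, a junction of nephrin and its partners, and rest on the glomerular basement membrane. In mice glomeruli are still being formed around birth, and the basement membrane exchanges fetal laminin and collagen IV chains for mature ones as capillary loops form. Alpha-actinin-4 crosslinks the actin filaments of the foot processes, and dominant mutations of the human gene cause a familial scarring disease of the glomerulus.

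Values are log2 signals of 1 probe set per gene, and a difference of 1 is a 2-fold change. The arrays held high signal of podocyte genes: Podxl (podocalyxin) lay between 12.53 and 12.83 on the 8 arrays, Wt1 (a podocyte transcription factor) between 11.97 and 12.34, and Synpo (synaptopodin) between 12.10 and 12.56. RNA of other cells was also measured. The mean signal of 40 proximal tubule genes was 9.75 ± 0.20 (SD, n = 4) at 2 weeks and 9.78 ± 0.26 (n = 4) at 5 weeks, against 10.45 ± 0.06 and 10.86 ± 0.06 for 40 podocyte genes. Kap, a proximal tubule gene, lay between 12.21 and 12.99, and Umod (uromodulin of the thick ascending limb) between 10.44 and 11.71. In such bulk RNA, fewer cells of a type and less RNA per cell cannot be told apart.

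Y-linked genes split the arrays unevenly between the ages. Their mean signal was at least 5.31 on high arrays and at most 3.66 on low ones; 1 of 4 KI arrays was high at 2 weeks (array 20) and 3 of 4 at 5 weeks (all but array 25). In WT 4 of 4 were high at 2 weeks and 2 of 5 at 5 weeks. The 18S ribosomal RNA 5′ control probe set measured 10.29 ± 0.44 (n = 4) at 5 weeks against 8.60 ± 0.96 at 2 weeks, and the exact permutation p of 0.057 (0.17 adjusted over 3 measures) missed the threshold of 0.05; 4 against 4 arrays allow no p under 0.029. The 3′ minus 5′ signal of Gapdh was 1.48 ± 0.19 against 1.21 ± 0.17 (exact p = 0.11) and that of actin 1.17 ± 0.15 against 1.16 ± 0.17 (exact p = 0.94). The part of sex and of RNA quality in the results below was not tested beyond the fits with these measures as covariates. The Y-linked covariate was the high or low call of each array, with a single effect shared by all ages and genotypes.

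From 2 to 5 weeks in KI, 646 genes rose and 992 fell among 11968 tested (limma, Benjamini-Hochberg adjusted p under 0.05). That is 13.7% of all genes, 5.4% higher and 8.29% lower. These shares are the background for the list counts below. Falls were the larger changes: 477 genes fell and 116 rose by more than 2-fold, and 111 fell and 25 rose by more than 4-fold. The median change of all genes was 0.02. The 4 arrays of one age did not overlap the 4 of the other for 3012 genes (25.2%; 11.5% higher and 13.7% lower at 5 weeks), and 1492 of the 1638 genes that passed were among them. With the 18S signal as a covariate, an alternative chosen after its values were seen, 331 genes passed. Of these, 318 were among the 1638, so 19.4% of the calls were kept. The 18S signal differed between the ages, so this fit also widened the SE, for Nphs1 (nephrin) from 0.22 to 0.27. A call lost in it is therefore not by itself a smaller change. The change of Nphs1 went from 0.80 to 0.97 and that of Pax8 from -1.19 to -0.65, and both lost their call. Of the 107 genes chosen by the naming rule that passed, all 107 kept their direction in that fit and 36 passed again. Most were chosen by large change or small p in these same data, so a kept direction was likely beforehand and lends no support. Without 2-week array 21, 326 rose and 639 fell, and without arrays 20, 24 or 25 the number that rose was 410, 391 or 368.

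Of 40 podocyte genes tested, 18 rose and 0 fell, with a median change of 0.41 against 0.02 for all genes; 3 rose with the 18S covariate, at a median of 0.36. Sulf1, a heparan sulfate endosulfatase, measured 10.08, 10.65, 10.36 and 10.42 at 2 weeks and 11.13, 11.17, 11.45 and 11.23 at 5 weeks. Every 5-week array was above every 2-week array, and the change was 0.87 ± 0.15 (SE, adjusted p = 0.00073). Vegfa, the growth factor by which podocytes maintain the glomerular endothelium, measured 8.98, 9.15, 8.98 and 9.22 and then 9.64, 9.78, 9.77 and 9.60, a rise of 0.62 ± 0.11 (adjusted p = 0.0011). Nebl (nebulette, an actin-binding protein) rose by 0.55 ± 0.12 and Ddn (dendrin, a slit diaphragm partner) by 0.43 ± 0.10. Rasl11a, a small GTPase, rose by 1.15 ± 0.26 (adjusted p = 0.005), from 10.03 ± 0.20 to 11.18 ± 0.32 (n = 4 each).

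Nphs1, which encodes nephrin, measured 10.14, 9.90, 9.83 and 9.53 at 2 weeks and 10.52, 10.54, 10.96 and 10.58 at 5 weeks. The groups did not overlap and the rise was 0.80 ± 0.22 (adjusted p = 0.017). Without array 25, the highest at 5 weeks, the rise was 0.70 with an adjusted p of 0.064, and without array 22, the lowest at 2 weeks, 0.70 with an adjusted p of 0.054. Of 21 slit diaphragm and polarity genes 4 rose and 0 fell (median 0.14): Nphs1, Slc9a3r2 (NHERF2, which links podocalyxin to the cytoskeleton) by 0.57 ± 0.11, Nck2 (an adaptor that binds phosphorylated nephrin) by 0.39 ± 0.09 and Fyn (a kinase that phosphorylates nephrin) by 0.48 ± 0.14. Without array 25 the list had 2 rises. With the 18S covariate 0 of 21 passed, at a median of 0.19, and Nphs1 was at 0.97 ± 0.27 (limma adjusted p = 0.057). Wt1 and Podxl did not pass, at 0.20 ± 0.08 (adjusted p = 0.11) and 0.14 ± 0.07 (adjusted p = 0.23), although their arrays did not overlap. The other bright probe set of Podxl changed by 0.88, and with all probe sets averaged Podxl passed at 0.51 (adjusted p = 0.012). Wt1 passed with a trended prior and with array weights. Fyn lost its call without array 19, 21 or 25. Actn1, the other non-muscle alpha-actinin of the kidney, measured 10.38 ± 0.43 and 10.65 ± 0.11 (n = 4 each; adjusted p = 0.51), with overlapping arrays.

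**Figure D1:**
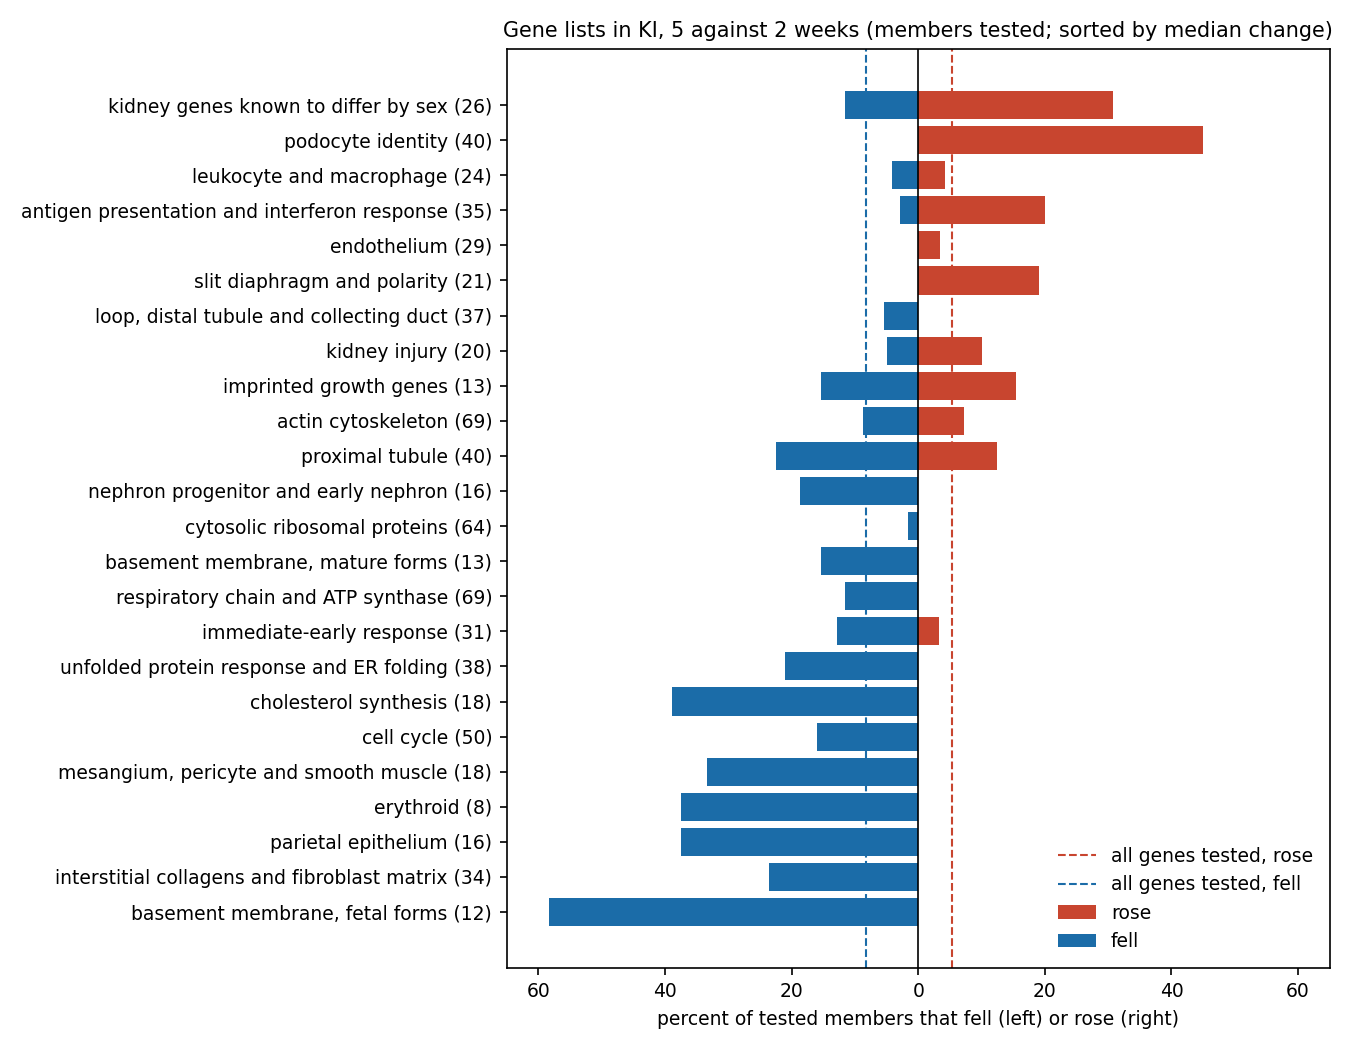
Percent of the tested members of 24 gene lists that rose (right, red) or fell (left, blue) from 2 to 5 weeks in KI, sorted by the median change; dashed lines mark the same shares among all 11968 genes, 5.4% and 8.29%. Podocyte genes had the highest share of rises, 18 of 40, and the fetal basement membrane list the highest share of falls, 7 of 12.

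Of 12 genes listed as fetal basement membrane genes, 7 fell and 0 rose, with a median change of -1.02. With the 18S covariate 3 fell, at a median of -0.94. Lamc1 and Nid1, both among the 7, belong to mature basement membrane as well, so the count does not measure an exchange of forms. Frem2, an extracellular matrix protein of embryonic basement membranes, measured 7.81, 7.66, 7.57 and 6.85 at 2 weeks and 4.96, 4.68, 4.96 and 5.04 at 5 weeks. That was the largest change among the 7, at -2.56 ± 0.39 (adjusted p = 0.00024). Its relative Frem1 changed by -1.54 ± 0.28. Lamc1, the laminin gamma 1 chain, measured 8.87, 9.06, 8.64 and 8.52 and then 7.28, 7.27, 7.87 and 7.68, a change of -1.25 ± 0.18 (adjusted p = 0.00014). Lamb1, the beta chain that Lamb2 replaces during maturation, fell from 10.23 ± 0.19 to 9.09 ± 0.40 (n = 4 each), a change of -1.15 that was -0.76 with all probe sets averaged. Lamb2 measured 8.91 ± 0.08 and 9.19 ± 0.23 without passing (adjusted p = 0.56).

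Col4a1 measured 11.48, 11.51, 11.55 and 11.05 at 2 weeks and 10.53, 10.34, 9.96 and 10.60 at 5 weeks, and Col4a2 11.46, 11.44, 11.54 and 11.27 and then 10.58, 10.26, 9.92 and 10.68. Both, the chains of the fetal network, had no overlap between the ages and changed by -1.04 ± 0.25 and -1.07 ± 0.26. Col4a3, Col4a4 and Col4a5, the chains of the mature network made by podocytes, did not pass, at 0.16 ± 0.15, 0.08 ± 0.11 and -0.40 ± 0.16. Among 13 mature basement membrane genes 2 fell, Tinagl1 by 1.48 ± 0.17 on the log2 scale and Col15a1 by 1.68 ± 0.40, and 0 rose (median -0.12). Tinagl1 encodes a matrix glycoprotein and Col15a1 collagen XV, neither of them a laminin or a collagen IV chain.

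Markers of fibroblasts, mesangium and smooth muscle moved beside them. Of 34 interstitial collagen and fibroblast matrix genes 8 fell and 0 rose (median -0.80); with the 18S covariate 2 fell, at a median of -0.68. Eln (elastin) measured 9.92, 10.04, 10.19 and 9.22 and then 7.74, 7.25, 7.89 and 8.58, a change of -1.98 ± 0.28 (adjusted p = 0.00014); its other bright probe set changed by -0.29, and all probe sets averaged by -1.13. Postn (periostin) fell from 8.33 ± 0.73 to 6.29 ± 0.43 and Lox (lysyl oxidase, which crosslinks collagen) from 8.18 ± 0.28 to 6.57 ± 0.60 (n = 4 each). Col1a1, whose promoter drives the tag, measured 11.02, 11.42, 11.55 and 10.72 at 2 weeks and 10.48, 9.99, 10.26 and 10.52 at 5 weeks. Its arrays did not overlap, but the change of -0.87 ± 0.41 did not pass (adjusted p = 0.18); it passed with array weights and with only the arrays compared. Among 18 genes of mesangium, pericytes and smooth muscle 6 fell and 0 rose (median -0.51), among them Acta2 (smooth muscle actin) by 0.92 ± 0.18 on the log2 scale and Agtr1a (the angiotensin II receptor) by 0.93 ± 0.29. With the 18S covariate 2 of the 18 fell, at a median of -0.52, and without array 25 also 2. Agtr1a lost its call without any one of arrays 19, 20, 21, 23, 24 and 25, and the change of Acta2 was -0.44 with all probe sets averaged. The mean signal of the mesangial list ranged from 7.89 to 7.99 at 2 weeks and from 7.48 to 7.74 at 5 weeks, and that of the fibroblast list from 8.41 to 9.04 and from 7.81 to 8.21. The part of these cells in the lower collagen and laminin values was not tested.

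**Figure D2:**
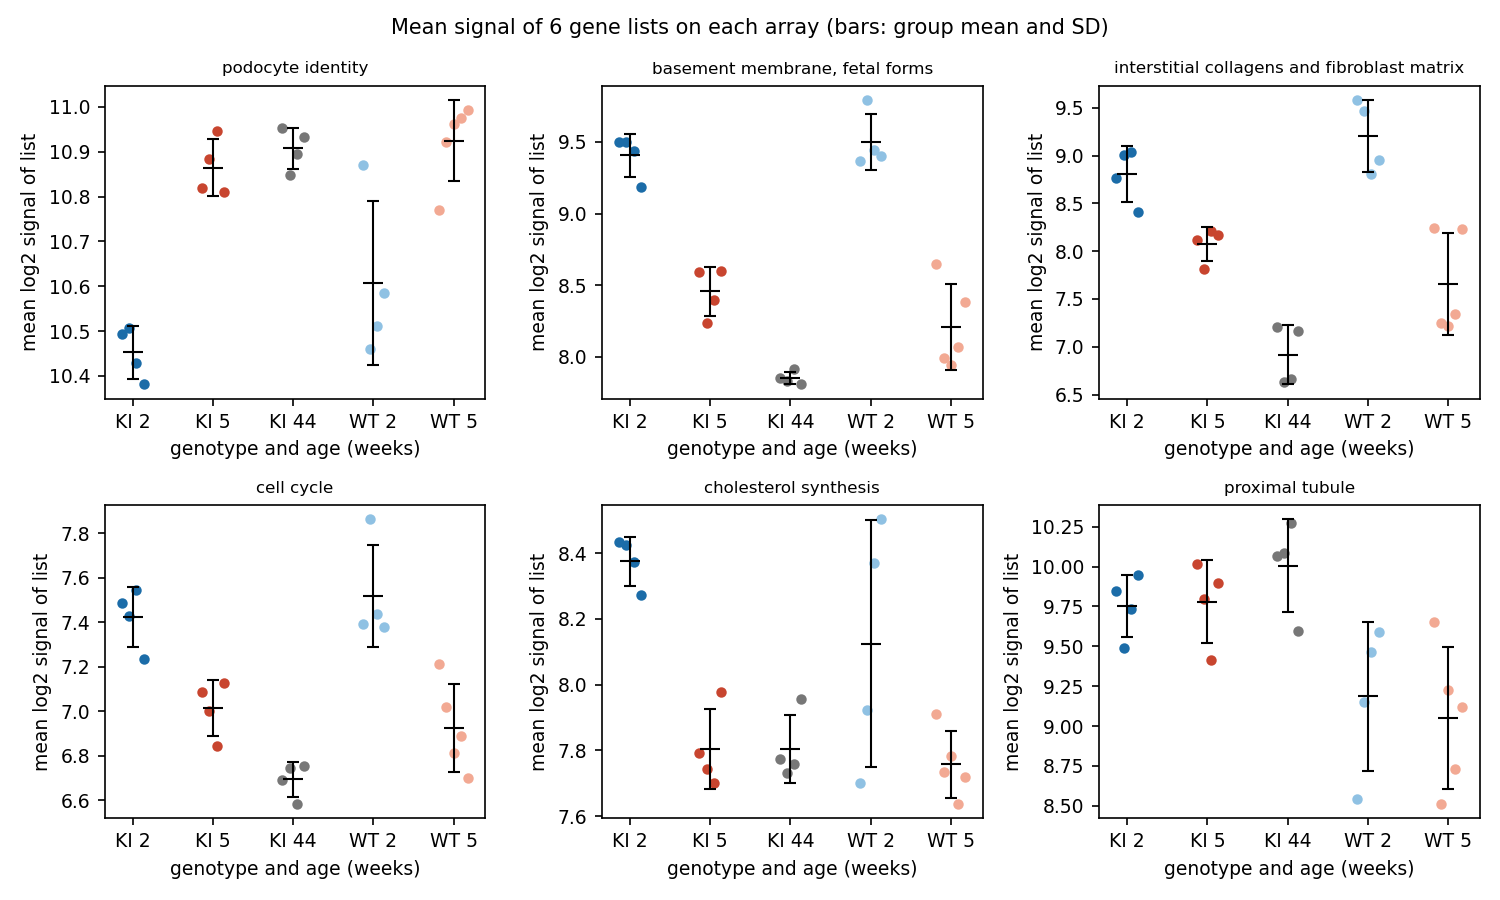
Mean log2 signal of 6 gene lists on each array of KI and WT at the ages given in weeks; each point is 1 array and the bars are the group mean and SD. In KI the podocyte list lay between 10.38 and 10.51 at 2 weeks and between 10.81 and 10.95 at 5 weeks, and the fetal basement membrane list between 9.19 and 9.50 at 2 and between 8.24 and 8.60.

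Of 50 cell cycle genes tested, 8 fell and 0 rose, with a median change of -0.39, and 46 of the 50 had a negative sign. H2az1, a histone variant, measured 10.07, 10.27, 10.37 and 10.19 and then 9.58, 9.70, 9.34 and 9.77, a change of -0.63 ± 0.12 (adjusted p = 0.0017). Ect2, which starts the contractile ring of dividing cells, measured 7.96, 7.57, 7.86 and 8.01 and then 6.29, 6.10, 6.83 and 6.43, a change of -1.44 ± 0.32. Tyms and Mcm5, of DNA synthesis, fell by 0.66 ± 0.15 and 0.73 ± 0.16 on the log2 scale; with all probe sets averaged Tyms was at -0.12 (adjusted p = 0.34) and Mcm5 at -0.44. Mki67, the proliferation marker Ki-67, measured 7.16, 6.69, 7.19 and 6.97 and then 6.80, 5.84, 4.73 and 6.32; the change was -1.08 ± 0.32 (adjusted p = 0.028), with overlapping arrays, and did not pass without any one of arrays 19, 21, 24 and 25. With the 18S covariate the median was -0.19 and 1 gene, H2az1, passed. Cdkn1c, the cell cycle inhibitor of mature podocytes, rose from 11.62 ± 0.24 to 12.11 ± 0.09 (n = 4 each; adjusted p = 0.031) but did not pass without any one of arrays 20, 22, 23, 24 and 25.

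Of 18 cholesterol synthesis genes tested, 7 fell and 0 rose (median -0.36), and 15 had a negative sign. Tm7sf2, a sterol reductase, measured 8.02, 8.15, 8.79 and 7.96 at 2 weeks and 6.31, 6.09, 5.87 and 6.44 at 5 weeks, a change of -2.05 ± 0.28 (adjusted p = 0.00013). Stard4, a cytosolic cholesterol carrier, fell from 9.66 ± 0.12 to 7.97 ± 0.34 (n = 4 each). The other 5 were Ebp, Msmo1, Fdps and Sqle, enzymes of the pathway, and Srebf2, its main transcription factor, with changes from -0.92 ± 0.18 (Ebp) to -0.43 ± 0.12 (Srebf2). With the 18S covariate 2 genes passed, at a median of -0.33. Sqle lost its call without any one of arrays 19, 20, 21, 22, 24 and 25 and Srebf2 without array 20, 22 or 23. With all probe sets averaged Msmo1 was at -0.35 (adjusted p = 0.056).

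Promoters of these groups were read from RefSeq (GRCm38.p6), as windows of 300 bases with 250 before and 50 after the start, to show what the genes that fell together carry. The genes printed and the motifs were chosen after the values were seen. Of the cell cycle genes printed, Ube2c changed by -1.07. Its call was lost without any one of arrays 19, 20, 21, 23, 24 and 25, and with the 18S or the Gapdh covariate. Capitals mark CCAAT, the box bound by NF-Y, and TTTGAA, a core found in promoters of late cell cycle genes, each on either strand. The windows are Tm7sf2 at chr19:6067801-6068100 (minus strand), Msmo1 at chr8:64733529-64733828 (minus), Mki67 at chr7:135716330-135716629 (minus) and Ube2c at chr2:164769679-164769978 (plus), each written 5′ to 3′; TTTGAA is marked in the Mki67 and Ube2c windows.
Tm7sf2: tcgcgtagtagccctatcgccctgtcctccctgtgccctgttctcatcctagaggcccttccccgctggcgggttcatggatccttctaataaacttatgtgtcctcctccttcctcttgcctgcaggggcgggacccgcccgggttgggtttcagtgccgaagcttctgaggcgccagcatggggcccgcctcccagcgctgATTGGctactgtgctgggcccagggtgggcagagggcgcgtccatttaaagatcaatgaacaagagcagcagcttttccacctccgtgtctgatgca
Msmo1: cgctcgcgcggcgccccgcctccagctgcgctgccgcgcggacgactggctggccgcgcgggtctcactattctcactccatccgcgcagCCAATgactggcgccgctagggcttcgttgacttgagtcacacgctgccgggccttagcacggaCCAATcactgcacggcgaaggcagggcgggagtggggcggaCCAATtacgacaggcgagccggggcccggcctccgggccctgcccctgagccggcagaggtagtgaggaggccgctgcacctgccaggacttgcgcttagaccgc
Mki67: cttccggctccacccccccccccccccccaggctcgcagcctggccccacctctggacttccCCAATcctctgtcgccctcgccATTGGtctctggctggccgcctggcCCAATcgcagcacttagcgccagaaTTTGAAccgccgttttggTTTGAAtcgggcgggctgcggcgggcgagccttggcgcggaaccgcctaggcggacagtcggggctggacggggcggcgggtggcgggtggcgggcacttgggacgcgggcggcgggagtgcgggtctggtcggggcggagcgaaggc
Ube2c: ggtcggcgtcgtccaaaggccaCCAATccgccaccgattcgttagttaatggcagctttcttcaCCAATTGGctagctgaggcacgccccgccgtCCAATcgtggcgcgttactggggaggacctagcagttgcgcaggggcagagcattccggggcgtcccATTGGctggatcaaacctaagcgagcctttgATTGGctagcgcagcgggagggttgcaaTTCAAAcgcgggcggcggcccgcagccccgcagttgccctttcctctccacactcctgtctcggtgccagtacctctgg

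CCAAT was in 37.4% of the 32851 promoters of the table and in 14 of the 14 cholesterol genes that had an entry. It did not separate the genes that fell, since it was in 4 of 4 of those and in 10 of 10 of those that did not pass. Among 39 cell cycle genes with an entry 29 held CCAAT (6 of 7 that fell, 23 of 32 that did not pass) and 17 held TTTGAA (4 of 7 and 13 of 32), against 17.9% of all promoters for TTTGAA. In all 7 strings were searched. The other 5 were variants of the sterol element, and most overlap each other. They were CACCCCAC, TCACCCCA, TCACCCCAC, TCACCCCAC with an A before it, and TCACGCCAC. In that order 0, 1, 0, 0 and 0 of the 14 cholesterol genes held them, against 2.9%, 1.6%, 0.6%, 0.1% and 0.1% of all promoters. A listed gene counted if any of its windows held the string. The 32851 promoters were counted as single windows, so the shares of genes and of promoters are unlike measures. A match or its lack describes these letters in this window only.

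The 15 largest falls were led by genes of secreted proteins, amino acid metabolism and transport. Serpina6, the corticosteroid-binding globulin, measured 12.74, 12.68, 12.96 and 12.58 at 2 weeks and 8.10, 5.51, 4.85 and 6.81 at 5 weeks. The 5-week arrays were widely spread, yet all lay below every 2-week array, and the change of -6.42 ± 0.56 (adjusted p = 1.3e-06) is 85.9-fold. Arg2 (mitochondrial arginase) measured 11.31, 11.35, 11.67 and 11.12 and then 6.53, 5.44, 6.67 and 6.76, a 32.3-fold lower level. Agt (angiotensinogen) measured 10.25, 10.10, 10.56 and 9.71 and then 6.20, 5.96, 5.98 and 6.49, a change of -4.00 ± 0.55.

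Of the 15, 5 encode transporters. Slc22a27 (an organic anion transporter of the kidney) changed by -4.19 ± 0.81, Slc6a20a (an imino acid transporter) by -4.19 ± 0.71, Slc39a8 (a zinc and manganese carrier) by -3.47 ± 0.61 (-2.25 with all probe sets averaged) and Abcc3 (an export pump for organic anions) by -3.59 ± 0.57. Slc7a12, an amino acid transporter, measured 11.82, 11.70, 11.80 and 11.68 and then 6.57, 5.29, 10.32 and 6.27, where array 25 stood far above the other 5-week arrays. Without that array its change of -4.64 became -5.71. Slc7a12 is on the list of kidney genes known to differ by sex, and array 25 is the 5-week array with low Y-linked signal. With the Y-linked covariate Slc7a12 was at -3.30 (adjusted p = 0.0062), and with the 18S covariate it did not pass (adjusted p = 0.11). Slc22a27 was at -3.32 with the Y-linked covariate and did not pass with the 18S covariate (adjusted p = 0.075). Serpina10, Elovl2 (a fatty acid elongase), Dio1 (a thyroid hormone deiodinase), Gpm6a (a membrane glycoprotein), A4gnt (a glycosyltransferase) and the noncoding RNAs Pantr1 and Panct2 filled the other places, at changes from -3.95 to -3.32. All 15 passed with the Y-linked covariate and 11 with the 18S covariate. In WT 14 also passed, all but Slc7a12.

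**Figure D3:**
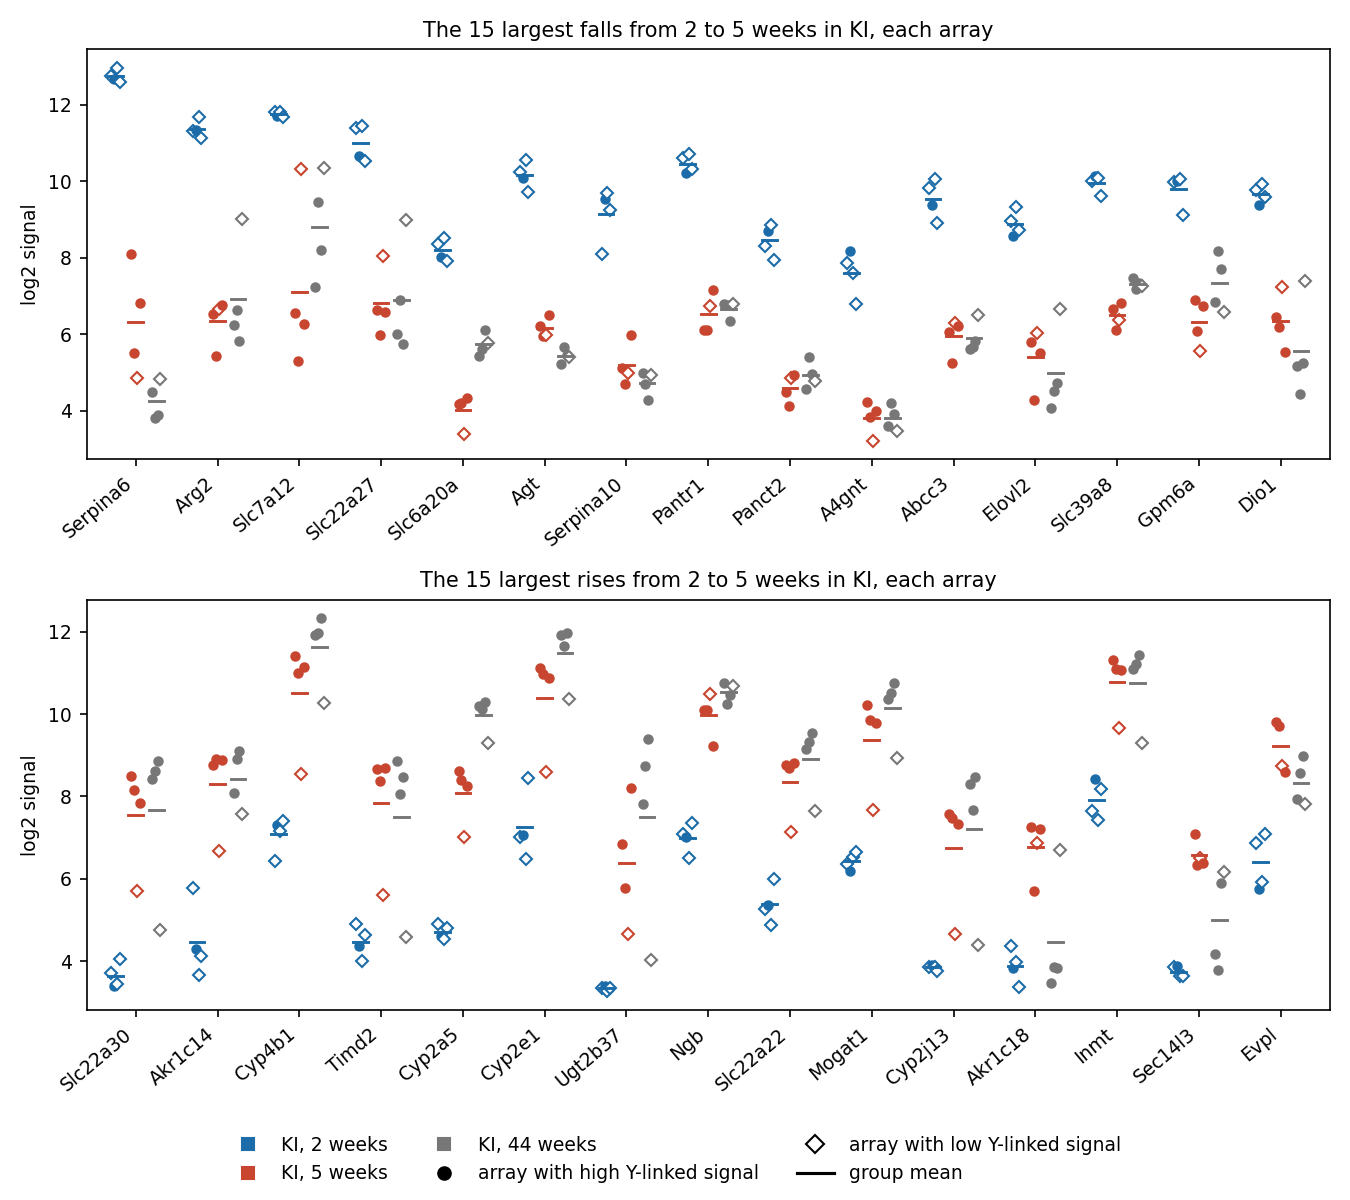
Log2 signal of the 15 largest falls (top) and the 15 largest rises (bottom) on each KI array at 2, 5 and 44 weeks; filled circles are arrays with high and open diamonds arrays with low Y-linked signal, and lines are group means. Serpina6 fell from 12.74 to 6.32, and the open diamond at 5 weeks, array 25, is the lowest of its group in 11 of the 15 rises.

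The 15 largest rises included 4 cytochrome P450 genes, which oxidise steroids and foreign compounds. Cyp2a5, one of these P450 genes, measured 4.91, 4.62, 4.54 and 4.80 and then 8.62, 8.40, 7.01 and 8.26, a change of 3.36 ± 0.42 (adjusted p = 7.2e-05). Akr1c14, a hydroxysteroid dehydrogenase, measured 5.77, 4.29, 3.66 and 4.14 and then 8.76, 8.92, 6.67 and 8.88, a change of 3.84 ± 0.72. Ngb (neuroglobin, an oxygen-binding protein) measured 7.09, 7.01, 6.51 and 7.37 and then 10.10, 10.10, 10.48 and 9.21, a change of 2.98 ± 0.31 (adjusted p = 1e-05). Evpl (envoplakin, of epithelial junctions) rose by 2.80 ± 0.65 and Akr1c18, which inactivates progesterone, by 2.87 ± 0.72. The 2-week mean lay under 4.603, the level below which genes were left out by their overall mean, for 7 of the 15, and a fold measured from such dim signal is compressed. Of the 15, 7 also passed in WT.

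Rises and the Y-linked signal are given together here. In 11 of the 15 the lowest 5-week array was array 25, the array with low Y-linked signal. Slc22a30, an organic anion transporter, measured 3.70, 3.40, 3.45 and 4.04 and then 8.49, 8.16, 5.71 and 7.85. Cyp4b1, which male kidneys express more, measured 6.42, 7.30, 7.17 and 7.41 and then 11.40, 10.99, 8.55 and 11.14. With the Y-linked covariate, which assumes the same effect at both ages, the Slc22a30 change of 3.90 became 2.60 (limma adjusted p = 0.0021). The Cyp4b1 change of 3.44 became 2.28 (limma adjusted p = 0.0038). In that fit 12 of the 15 rises were smaller and 14 passed; Ugt2b37, a glucuronosyltransferase, was at 1.71 with an adjusted p of 0.057 against 3.03 before, and did not pass without any one KI array other than array 25. With the 18S covariate 5 of the 15 passed. Timd2 (an immune and iron-handling receptor) rose by 3.36 ± 1.01 and lost its call without any one of arrays 19, 20, 21, 23, 24 and 26, as did Cyp2j13 without any one KI array other than array 25.

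Of 26 kidney genes known to differ by sex, 8 rose and 3 fell (median 0.75). With the Y-linked covariate 7 rose and 5 fell, at a median of 0.50, and with the 18S covariate 0 rose and 1 fell, at a median of 0.85. Cyp2e1 measured 7.02, 7.05, 6.48 and 8.44 and then 11.12, 10.98, 8.59 and 10.86, a change of 3.14 ± 0.81 that became 2.12 (adjusted p = 0.014) with the covariate. Array 20, the only 2-week array with high Y-linked signal, lay within the range of the other 2-week arrays for 5 of the 8 genes that rose, was the lowest for 2 (Slc22a30 and Acsm2) and the highest for 1 (Cyp2j13). Odc1, which starts polyamine synthesis, measured 9.21, 8.90, 8.69 and 9.29 at 2 weeks and 10.73, 10.78, 9.27 and 10.47 at 5 weeks, with array 25 inside the 2-week range; it did not pass without array 20, 21, 23 or 24.

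**Figure D4:**
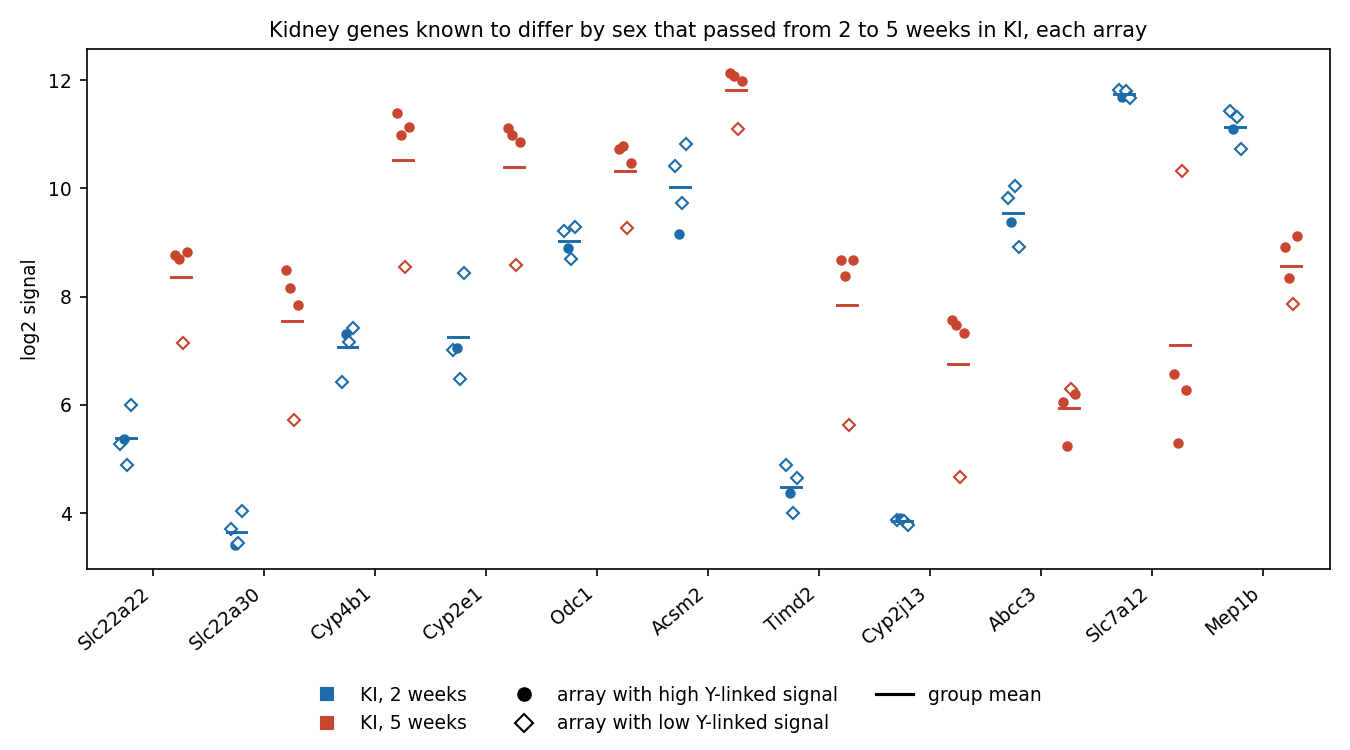
Log2 signal of the 11 kidney genes known to differ by sex that passed from 2 to 5 weeks in KI, on each of the 8 arrays; filled circles mark high and open diamonds low Y-linked signal, and lines are group means. Array 25, the open diamond at 5 weeks, measured 8.55 for Cyp4b1 where the other arrays of that age were between 10.99 and 11.40.

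Of 40 proximal tubule genes 5 rose (12.5%) and 9 fell (22.5%), against 5.4% and 8.29% of all genes (median -0.02). Aqp1 (the water channel aquaporin 1) measured 12.02, 11.88, 12.05 and 11.89 and then 9.93, 9.59, 9.89 and 9.82, a change of -2.15 ± 0.42. Slc6a18 (a neutral amino acid transporter) changed by -2.62 ± 0.51 and Slc3a1 (a subunit of the cystine transporter) by -1.85 ± 0.35, while Slc22a6 (the organic anion transporter OAT1) rose by 1.98 ± 0.52 and Slc13a1 (a sulfate transporter) by 1.14 ± 0.33. Slc13a1 lost its call without any one of arrays 19, 20, 21, 23, 25 and 26 and was at 0.68 (adjusted p = 0.25) with all probe sets averaged; Slc22a6 lost its call without array 21. Of the 40, 0 rose and 2 fell with the 18S covariate, at a median of -0.12. The list mean overlapped between the ages. With the mean of the tubule markers as a covariate all 1638 genes passed again. That mean ranged from 8.545 to 9.211 at 2 weeks and from 8.726 to 9.057 at 5 weeks. A covariate so alike at both ages can move the changes little, so the part of tubule RNA was not tested by this fit. Of 37 genes of the loop, distal tubule and collecting duct 2 fell, Aqp4 and Krt8, and 0 rose (median 0.14). That is 5.41%, under the 8.29% of all genes that fell. Neither gene passed with the 18S covariate or without any one of arrays 21, 23 and 24.

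Among 16 parietal epithelial genes 6 fell and 0 rose (median -0.70), among them Cldn2 (a paracellular channel, also of the proximal tubule) by 1.52 ± 0.34 on the log2 scale and Pax8 (a nephron transcription factor) by 1.19 ± 0.31. With the 18S covariate 0 of 16 passed, at a median of -0.44, and without array 25, 3 fell. Of 29 endothelial genes 1 rose (3.45%) and 0 fell, against 5.4% and 8.29% of all genes. The gene that rose was Plat (tissue plasminogen activator, a gene podocytes also express), by 0.56 ± 0.17. Plat lost its call without any one of arrays 19, 20, 21, 24, 25 and 26. Of 24 leukocyte genes Fcer1g rose by 0.52 ± 0.16 and Csf1r, the macrophage growth factor receptor, changed by -1.43 ± 0.32. Each way that is 4.17%, against 5.4% and 8.29% of all genes. The Fcer1g call was lost without any one of arrays 19, 20, 22, 23, 24 and 25. With the 18S covariate 0 of the 24 passed. Of 8 erythroid genes 3 fell, Hba-a1 (alpha globin) from 10.02 ± 1.04 to 8.09 ± 0.39, Klf1 (the erythroid transcription factor) from 5.84 ± 0.28 to 4.96 ± 0.20 and Tfrc (the transferrin receptor) from 9.31 ± 0.37 to 8.27 ± 0.61 (n = 4 each). Only 1 of the 8 fell with the 18S covariate, at a list median of -0.28 against -0.67, and also 1 without array 25. Hba-a1 lost its call without array 20, 21, 25 or 26, and Tfrc without array 19, 20, 24 or 25 and with all probe sets averaged (-0.56, adjusted p = 0.094).

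Of 69 actin cytoskeleton genes tested, the group that holds the partners of alpha-actinin-4, 5 rose (7.25%) and 6 fell (8.7%), shares near the 5.4% and 8.29% of all genes, with a median of 0.05. In the fit with the 18S covariate 0 rose and 2 fell. Synpo rose from 12.18 ± 0.10 to 12.50 ± 0.05, Myo1e (a myosin of foot processes), Pdlim2, Diaph2 and Pls3 also rose, and Acta2, Tpm2, Zyx, Vcl, Evl and Myl9 fell. Leaving out 1 array ended the call of 4 of these rises, those of Myo1e, Pdlim2, Diaph2 and Pls3 (each for 3 or more of the 8 arrays), and of 3 falls, those of Vcl, Evl and Myl9 (arrays 20 and 24 among others). With all probe sets averaged the change of Vcl was -0.07 (adjusted p = 0.74), that of Evl -0.66 against -1.05, and that of Synpo 0.39 (adjusted p = 0.12). Zyx (zyxin, of focal adhesions) measured 9.26, 9.48, 9.28 and 9.26 and then 8.37, 8.39, 8.44 and 8.66, a change of -0.85 ± 0.16 (adjusted p = 0.0016), and the contractile genes Acta2 and Tpm2 changed by -0.92 ± 0.18 and -0.99 ± 0.25. Vcl encodes vinculin of adhesion sites and Myl9 a myosin light chain of smooth muscle.

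Respiratory chain genes had 8 falls (11.6%, against 8.29% of all genes) and 0 rises in 69 (median -0.15). With the 18S covariate they had 1 fall, at a median of -0.15. The smallest p was that of Ndufb8 of complex I, from 11.90 ± 0.10 to 11.25 ± 0.05 (n = 4 each); its change of -0.65 was -0.43 with all probe sets averaged. Of 64 cytosolic ribosomal protein genes 1 fell (1.56%), Rpl14, and 0 rose (median -0.05). The unfolded protein response and ER folding list had 8 falls (21.1%) and 0 rises in 38 (median -0.21). With the 18S covariate it had 1 fall, at a median of -0.19. Herpud1, of ER-associated degradation, measured 10.74, 10.41, 11.09 and 11.15 and then 9.72, 9.65, 9.78 and 10.13. Of 31 immediate-early genes Gadd45g, Klf2, Dusp6 and Per1 fell (12.9%) and Ier3 rose (3.23%), with a list median of -0.16. With the 18S covariate 1 fell, at a median of -0.01. Per1 lost its call without any one KI array other than array 26, Ier3 without any one KI array, Klf2 without array 22 or 24 and Dusp6 without array 24. Gadd45g, a stress-induced growth arrest gene, changed by -2.18 ± 0.28 (adjusted p = 8.5e-05).

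Antigen presentation and interferon genes had 7 rises and 1 fall, H2-T23, in 35 (median 0.33). With the 18S covariate 2 rose, at a median of 0.44, and without array 25, 3 rose. H2-T23 lost its call without any one of arrays 19, 20, 21, 23, 24 and 26. Psmb9, an immunoproteasome subunit, measured 7.09, 6.75, 7.26 and 7.04 and then 7.83, 8.52, 8.26 and 8.18, and its 2 other bright probe sets were at -0.07 and 0.05, and all its probe sets averaged gave 0.38 (adjusted p = 0.14). Nlrc5, the activator of class I genes, rose by 1.54 ± 0.39 (not passing without array 20) and Irf1 by 0.65 ± 0.17. Xaf1 rose by 1.28 ± 0.35 on its brightest probe set, while its other bright probe set was at -2.96, so its direction is uncertain. Of 20 kidney injury genes Tnfrsf12a (the TWEAK receptor) and Anxa2 rose, by 0.73 ± 0.18 and 0.30 ± 0.08. Krt8 fell by 1.71 ± 0.52 on the log2 scale. That is 10.0% higher and 5.0% lower, against 5.4% and 8.29% of all genes. Anxa2 did not pass without array 21, 24 or 25, and 0 of the 20 passed with the 18S covariate. Of 16 nephron progenitor genes Bmp4, Pax8 and Sall1 fell and 0 rose, and Sall1 lost its call without array 21, 22, 23 or 24. Of 13 imprinted growth genes Slc38a4 and Cdkn1c rose and Phlda2 and Sgce fell, and 0 of the 13 passed with the 18S covariate; Slc38a4 and Sgce each lost their call without array 20 or 25, among others. Phlda2, which restrains placental growth, changed by -1.47 ± 0.38.

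The KI changes were set against those of WT mice over the same ages, on arrays that neither comparison shares. In WT 1457 genes rose and 2595 fell, 33.9% of those tested (12.2% and 21.7%), with a median of -0.06. Of the 1638 KI genes, 1062 passed in WT in the same direction, 5 in the opposite direction, and 1537 had the same sign (93.8%); the 1062 are 64.8% of the KI and 26.2% of the WT genes. Across the 11968 genes, which are not independent replicates, the changes had a Pearson r of 0.69 and a Spearman rho of 0.54. Genes that rose in KI had median changes of 0.65 in KI and 0.46 in WT, and those that fell -0.97 and -0.90. Choosing genes by their KI change enlarges the KI medians, so these pairs do not compare the genotypes. The same-sign share over all genes is not given here.

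The difference of the KI change from the WT change itself passed for 3 genes (0.0251%), all with the KI change higher, and for 0 with it lower; 2240 genes had an unadjusted p under 0.05, 1618 higher and 622 lower. Mri1, of the methionine salvage pathway, changed by 0.44 ± 0.18 in KI and -1.17 ± 0.17 in WT, a difference of 1.62 (adjusted p = 0.013). Tdp1, a DNA repair enzyme, differed by 1.35 and Trip10, an adaptor of actin and membrane dynamics, by 1.13 (adjusted p = 0.034 for each). None of the 3 passed in KI itself, although Trip10 did with array weights, only the arrays compared or the Y-linked covariate, and Mri1 with array weights. This result depends on few arrays. Without WT 5-week array 10 the difference passed for 1217 genes higher and 304 lower. With array weights it passed for 1733 and 708, and with only the arrays compared for 0. The Gapdh 3′ minus 5′ signal was 1.552 to 1.837 on WT 2-week arrays. It was 0.98 to 1.154 on WT 5-week arrays 6 to 9 and 1.91 on array 10. The 18S signal was 8.505 to 9.339, 8.14 to 8.707 and 9.971 in that order. In KI both means were higher at 5 weeks. The part of RNA quality in the difference was not tested beyond the covariate fits. For 28 of 34 fibroblast matrix genes the WT change passed as a fall, against 8 in KI, but the difference between the genotypes passed for 0 of the 34. Col1a1 changed by -2.42 ± 0.39 in WT and -0.87 ± 0.41 in KI, a difference of 1.55 that did not pass (adjusted p = 0.16). The WT 5-week arrays themselves ranged from 7.21 to 8.24 in the mean of that list, against 7.81 to 8.21 in KI.

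**Figure D5:**
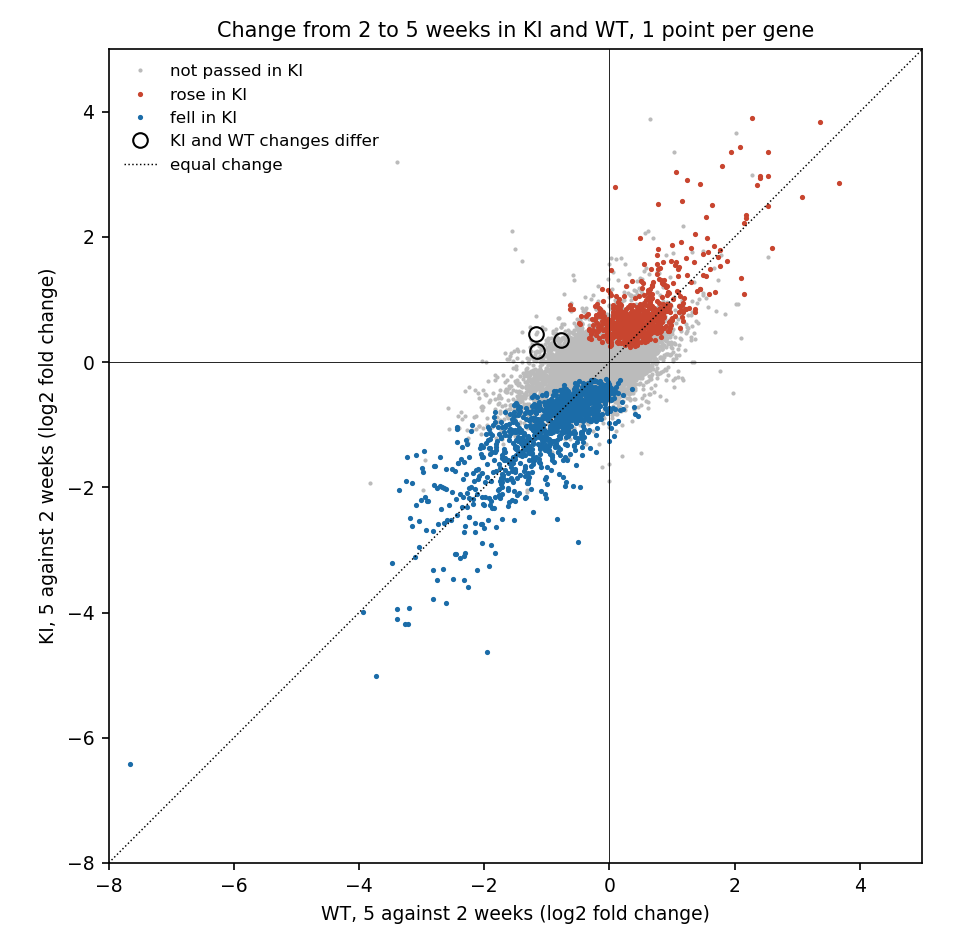
Log2 fold change from 2 to 5 weeks in KI (vertical) against that in WT (horizontal), 1 point for each of 11968 genes; red and blue points rose or fell in KI, grey points did not pass, circles mark the 3 genes whose changes differed between genotypes, and the dotted line marks equal change. Most coloured points lie in the lower left and upper right, with 1537 of 1638 of the same sign in both genotypes.

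At 44 weeks, given as levels without a test, KI arrays stayed on the 5-week side for most of the genes with the largest changes. For all 15 largest falls the highest 44-week array lay below the lowest 2-week array, and for 12 of the 15 rises the lowest 44-week array lay above the highest 2-week array. These genes were chosen for their distance from the same 2-week arrays, and the share among all genes was not counted. The counts therefore describe the chosen genes only. Serpina6 was at 4.26 ± 0.49 and Cyp2a5 at 9.98 ± 0.46 (n = 4 each). The mean of Akr1c18 was 4.47 ± 1.50, near its 2-week level of 3.89 ± 0.41, but its 44-week arrays ranged from 3.47 to 6.70. The highest of them lay within the 5-week range of 5.71 to 7.26. Slc6a20a was at 5.73 ± 0.30 against 4.02 ± 0.43 at 5 weeks. The podocyte list mean was 10.91 ± 0.05, close to the 10.86 ± 0.06 of 5 weeks, while the fetal basement membrane list stood at 7.85 ± 0.04 against 8.46 ± 0.17, and Col1a1 at 6.98 ± 0.65 against 10.31 ± 0.24.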

How the data were processed

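Polysomal RNA was amplified in 1 round with the NuGEN WT-Ovation kit and labelled with the Encore Biotin Module, per the labels' protocols. The deposited values are log2 signals, 1 per probe set and array; the base follows from their range of 1.86 to 13.62, since a natural log would exceed the scanner's 16-bit limit. The authors' summary and normalization steps are not given in the sources used here. Medians of the 8 KI arrays lay between 4.91 and 4.94. Precision is limited by the number of arrays (median SE 0.18).

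Of 45141 probe sets 28898 had 1 gene symbol, 551 several and 104 were controls; 15588 are unnamed here. Symbols were updated through Entrez identifiers (99.3% found). Each gene was read from its brightest probe set (mean of the 25 arrays), and the dimmest 30% were left out (limit 4.603), which left 11968 of 17097 genes. limma 3.58.1 in R 4.3.3 fitted 6 group means over 25 arrays (19 residual degrees of freedom), tested on simulated data. Changes are differences of group means with limma's SE; p-values are two-sided. Array measures used exact permutation tests.

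The members, the 25 lists and the tests were chosen with earlier results of these data known, so a list is described by its count and median and supports nothing on its own. Named genes are the 15 largest rises and falls that passed without overlap (1 clone name passed over), a few fixed genes (Actn1, Col1a1, Nphs1, Wt1 and Podxl), up to 4 per list by p, and those with the strongest difference between genotypes; further list members named in the text were chosen for their role or after their values were seen. Alternatives were normalization, filter, probe set choice, prior, array weights, array set, covariates and leaving out each array. The Y/Xist list was used only to describe the arrays; none of its 4 tested genes passed (0 of 4).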

Additional observations from a re-analysis of the deposited data

Results flagged for a closer look

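Array 25, the 5-week KI array with low Y-linked signal, stood apart from the other 3 arrays of its group in 14 of the 23 cases in which 1 array's gap to the rest took most of the group's range (Dixon's criterion). In all 322 groups of values were examined, and chance alone marks about 1 in 20. The other cases fell on array 20 (4), array 22 (3), array 24 (1) and array 26 (1).

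Array 25 was the lowest for Akr1c14 (6.67, the others from 8.76 to 8.92), Cyp4b1 (8.55, from 10.99 to 11.40), Timd2 (5.62, from 8.37 to 8.68) and Cyp2e1 (8.59, from 10.86 to 11.12). It was also the lowest for Slc22a22 (7.15, from 8.70 to 8.82), Cyp2j13 (4.66, from 7.33 to 7.56), Inmt (9.65, from 11.06 to 11.30) and Slc6a20a (3.38, from 4.17 to 4.32). The same array was lowest for the Y-linked genes Eif2s3y (4.03), Uty (2.65) and Kdm5d (4.07) and for Spryd7 (7.66). It was highest for Nphs1 (10.96, from 10.52 to 10.58) and for Prom1 (9.08, from 8.07 to 8.16), a parietal and progenitor cell marker.

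Array 20, the 2-week KI array with high Y-linked signal, was highest for Eif2s3y (9.22, the others from 3.19 to 3.86), Uty (5.56), Zyx (9.48) and the mean of the nephron progenitor list (7.23). Array 22 was lowest at 2 weeks for Gpm6a (9.11), Lamb1 (9.95) and Col15a1 (8.18). At 5 weeks array 24 was lowest for Tdp1 (7.24), and array 26 was lowest for the 18S 5′ control (9.64, the others from 10.50 to 10.52).

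The change from 2 to 5 weeks differed between KI and WT by the test of the difference (limma) for Mri1 at 1.62, Tdp1 at 1.35 and Trip10 at 1.13.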

How the results depend on the processing

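Counts of genes higher and lower at 5 weeks in KI stayed within 1.5 times 646 and 992 under quantile normalization, centring, either filter, averaging all probe sets, a trended robust prior, only the 8 KI arrays and covariates for the Y-linked, tubule and Gapdh signal. Array weights gave 1419 higher and 1757 lower, and the 18S covariate 137 and 194; the cause was not tested. Leaving out each array gave 326 to 535 higher and 639 to 930 lower, lowest without array 21; without arrays 20, 24 and 25 the higher counts were 410, 391 and 368.

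The difference between KI and WT changes passed for 1 gene under quantile normalization, centring and the trended prior, 6 with the Y-linked covariate and 0 with only the arrays compared, with the 18S or Gapdh covariate (both added after the data were seen) and without WT 5-week arrays 7, 8 and 9 (also added). Array weights gave 1733 higher and 708 lower. Leaving out each array gave 0 to 1217 higher and 0 to 304 lower, both highest without WT 5-week array 10. The higher count was 0 without KI array 19, 21, 25 or 26, and the lower count was 0 without any array other than WT 5-week array 10.

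Over the genes chosen by the naming rule, 2371 values under alternatives kept direction and side of the threshold, 227 no longer passed, 54 newly passed and 1 reversed: Xaf1 at -0.84 with all probe sets averaged, whose other probe set opposes. Without array 22 the 18S difference was 2.07 (exact p = 0.029); leaving out each array gave 1.35 to 2.07, 0.20 to 0.35 for Gapdh and -0.04 to 0.10 for actin. No paired analysis was possible because KI groups share no replicate numbers. Signals near 4.603 have little room to fall.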

Other observations

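Stat5a, Dnajc3, Mrpl1, Spryd7 and Etfrf1 had the smallest p for a KI change below the WT change, and none passed. Stat5a, a cytokine signalling factor, measured 8.85 ± 0.21 at 2 weeks and 8.09 ± 0.11 at 5 weeks in KI (n = 4 each; limma adjusted p = 0.0024), with a change of 0.17 ± 0.15 in WT; the difference of -0.94 had an adjusted p of 0.094. Dnajc3, an ER co-chaperone, changed by -0.23 ± 0.09 in KI and 0.28 ± 0.08 in WT, Mrpl1 by -0.14 ± 0.17 and 0.86 ± 0.16, Spryd7 by -0.72 ± 0.20 and 0.38 ± 0.19, and Etfrf1 by -0.43 ± 0.14 and 0.35 ± 0.13, each with an adjusted p of 0.094 for the difference.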
